A study of Schizosaccharomyces pombe with 36 samples.

Results

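The fission yeast fork barrier RTS1 stops replication forks only when the protein Rtf1 is present, and the comparison here asked what changed when Rtf1 was made from a stronger promoter. It rests on 4 of the 36 libraries of the series, chosen by their genotype labels: the Pol δ and Pol ε libraries of strains in which the adh1 promoter drives rtf1 (adh1-rtf1), and the Pol δ and Pol ε libraries of strains with the endogenous rtf1 promoter (rtf1+). Both pairs of Schizosaccharomyces pombe strains were deleted for rnh201 (rnh201-d) and carried pku70+. In both, the native RTS1 beside the mating-type locus was replaced by a phleomycin marker, and RTS1 stood on chromosome 2 with an array of 10 rDNA barriers (rRFB) downstream of it. The h- mating type and the markers ura4-D18, leu1-32 and ade6-704 were common to all of them. The Pol δ strains carried cdc6-L591G and the Pol ε strains cdc20-M630F, mutant catalytic subunits that place extra ribonucleotides in the strand they make. Cells were grown to log phase in YE at 30 °C, which is not a synchronised culture. Each strain gave 1 library, and the promoter swap was labelled with a NAT marker in front of rtf1, which the rtf1+ strains do not have.

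Beside this pair of pairs, 7 others with the same construct served as reference. One was the rnh201-d pku70+ pair deleted for rtf1 (rtf1-d, barrier off), whose label names the RTS1 insertion but not the rRFB array. The other 6 were rtf1+ and rtf1-d pairs in 3 further backgrounds: rnh201-RED pku70+, rnh201-RED pku70-d and rnh201-d pku70-d, where rnh201-RED is a ribonuclease allele that no longer removes single ribonucleotides. The genotype labels of these 6 pairs add smt0 (smt0x in rnh201-d pku70-d), a deletion at mat1 that blocks mating-type switching, which the labels of the adh1-rtf1, rtf1+ and rtf1-d rnh201-d pku70+ strains do not list. A further adh1-rtf1 pair, rnh201-RED pku70+ without smt0, was used away from chromosome 2's construct. Its labels name a second RTS1, which faces the first, and no rRFB, and its Pol δ allele is cdc6-L591M. Which of its 2 libraries is Pol δ is given one way by the titles and the other way by the genotype labels. The titles decided it here, and under the genotype labels its Pol δ and Pol ε usage, and with them its fork direction, would be exchanged.

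Rtf1 is a Myb-type DNA-binding protein that binds repeats within RTS1. A fork that meets the barrier from its blocking side stalls, and homologous recombination then restarts it downstream. A canonical fork uses Pol ε for its leading strand and Pol δ for its lagging strand, whereas a restarted fork uses Pol δ for both. Polymerase usage sequencing (Pu-seq) reads this from the 5′ ends left where alkali cuts the DNA at ribonucleotides. In a stretch copied by rightward forks the Watson strand is made by Pol ε and the Crick strand by Pol δ, so loss of Pol ε from the Watson strand marks the switch. Pol δ on both strands together distinguishes restart from a mere turn in fork direction, since leftward canonical forks lose Pol ε on Watson but gain it on Crick.

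Repeats within RTS1 are shown first, because the search for other sites below depends on them. Binding of Rtf1 to them was not tested. The native RTS1 lay at chr2:2113045-2113898 in the reference (ASM294v3), between rga7, whose end it overlaps, and the mat1-M genes, and its plus strand held 4 copies of a shared word. Capitals mark the letters that the consensus CATACCCTTTNNAANTGGG requires, where N is any base.
Repeat 1, chr2:2113304-2113333: tgcCATACCCTTTttAAgTGGGatgaagta
Repeat 2, chr2:2113388-2113417: tgtCATACCCTTTccAAgTGGGaggtagag
Repeat 3, chr2:2113510-2113539: tgtCATACCCTTTctAAgTGGGggatagca
Repeat 4, chr2:2113581-2113610: tgcCATACCCTTTccAAaTGGGggagagga
The consensus was built from these 4 repeats, so their match at each of the 16 letters compared was fixed in advance. With up to 1 mismatch allowed, and both strands searched, no further match stood anywhere in the reference genome.

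In the strains used here RTS1 was inserted at chr2:851805-851806, between clr6, a histone deacetylase gene, and spo9. The rRFB array was inserted at chr2:862456-862457, just inside SPBC36.11 and past ups2. There were 3 stretches of native sequence compared: 2400 bp to the left of RTS1, 9451 bp between RTS1 and the rRFB, and 12500 bp beyond the rRFB that ends within pwp2. Forks from the left meet RTS1 in its blocking orientation. The rRFB array was placed to slow the forks that converge from the late origin on the right, which pause at it.

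The libraries were deep, and they fitted their labels for rnh201 and, apart from a Pol δ library named below, for rtf1. The adh1-rtf1 libraries held 29561971 (Pol δ) and 22040805 (Pol ε) counts and the rtf1+ libraries 11419114 and 12581298, within 3304406 to 30967258 over the 18 libraries fitted together below. In the bin at the start of rtf1, which the promoter swap replaced, the adh1-rtf1 libraries had 0.41 and 1.13 CPM (counts scaled to the library total) against 14.4 and 14.9 with rtf1+. The promoter sequence before adh1, now present at a second place, had 129.5 and 56.7 CPM per bin against 17.7 and 35.9. The pattern of cuts differed between these libraries, as given below, so these values do not measure copy number. Counts over rnh201 were at 0.21 and 0.15 of the flanks in the adh1-rtf1 libraries. Over rtf1, the Pol δ library of rtf1-d rnh201-d pku70+ stood at 0.26 of the flanks (458 counts), and its Pol ε library at 0.040. The other rtf1-d Pol δ libraries were at 0.056 to 0.096, and the rtf1+ Pol δ library at 0.66. That Pol δ library fits its rtf1-d label less well, and it is part of a barrier-off reference used below. In the pair labelled rnh201-d pku70-d and its rtf1-d partner, counts over pku70 stood at 0.64 to 0.81 of the flanks, so these libraries go against the pku70-d label, whereas those labelled rnh201-RED pku70-d were at 0.014 or less. The 2 rnh201-d pku70-d pairs are called by their labels, and where they set an end of a range at the construct or at a named site, that range is also given without them.

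One fact about the libraries touched every comparison across the genome. Bin by bin over chromosome 1 (18498 bins), the adh1-rtf1 Pol δ library correlated with the rtf1+ Pol δ library at only 0.06, but with the rtf1+ rnh201-RED pku70-d library at 0.97 and with its rtf1-d partner at 0.94. For Pol ε the values were 0.31, 0.80 and 0.89. With the second-RTS1 adh1-rtf1 pair they were 0.84 for Pol δ and 0.85 for Pol ε. The adh1-rtf1 pair was thus compared with rtf1+ libraries of another fine pattern of cuts, and the rnh201-RED pku70-d pairs, which had the 2 highest values among the 8 reference pairs for each polymerase, are given as further references. These are descriptions over bins of the same libraries. The difference in fine pattern and the promoter swap cannot be told apart in the direct comparison, and the rnh201-RED pku70-d pairs differ from adh1-rtf1 in rnh201 and pku70 as well. With 1 pair against 4, an exact permutation test cannot go below 0.2 one-sided, so the intervals at the locus are 95% counting intervals. They cover counting error only, since PCR reads are not independent molecules, and not the spread between cultures.

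With adh1-rtf1, little Pol ε was left on Watson DNA between the barriers. Watson Pol ε usage there was 13.3% (12.8 to 13.8; 19693 Pol δ and 2245 Pol ε counts), against 27.8% (26.8 to 28.9; 5095 and 2166 counts) with rtf1+. The difference was −14.6 percentage points (−15.7 to −13.5). The remaining rtf1+ pairs were at 21.5% (rnh201-RED pku70+), 23.8% (rnh201-RED pku70-d) and 31.0% (rnh201-d pku70-d), so that the 4 rtf1+ pairs averaged 26.1% ± 4.22 (SD, n = 4), and without the pair labelled rnh201-d pku70-d they ran from 21.5 to 27.8%. The adh1-rtf1 pair lay below each of them, by 8.26 to 17.8 points. With the barrier off, the 4 rtf1-d pairs were at 91.2 to 95.8%, and no barrier-on pair came near them.

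On the Crick strand the pairs were not separated in this way. Crick Pol ε usage between the barriers was 21.8% (21.04 to 22.5) with adh1-rtf1 and 25.5% (24.2 to 26.8) with rtf1+, a difference of −3.69 points (−5.21 to −2.21). The other rtf1+ pairs ran from 18.8 to 34.8%, and to 28.4% without rnh201-d pku70-d, so the adh1-rtf1 value lay inside their range. The rtf1-d pairs were at 7.32 to 23.2%.

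Pol δ usage averaged over both strands, the mark of a restarted fork, was highest with adh1-rtf1. It was 82.5% (82.0 to 82.9), against 73.4% (72.5 to 74.2) with rtf1+, 79.9% in rnh201-RED pku70+, 73.9% in rnh201-RED pku70-d and 67.1% in rnh201-d pku70-d. The rise over rtf1+ was 9.14 points (8.20 to 10.1). Against the nearest rtf1+ pair, rnh201-RED pku70+, it was 2.63 points, and the 4 rtf1+ pairs had an SD of 5.23 points (3.62 points without rnh201-d pku70-d). The rtf1-d pairs were at 42.8 to 49.2%.

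**Figure D1:**
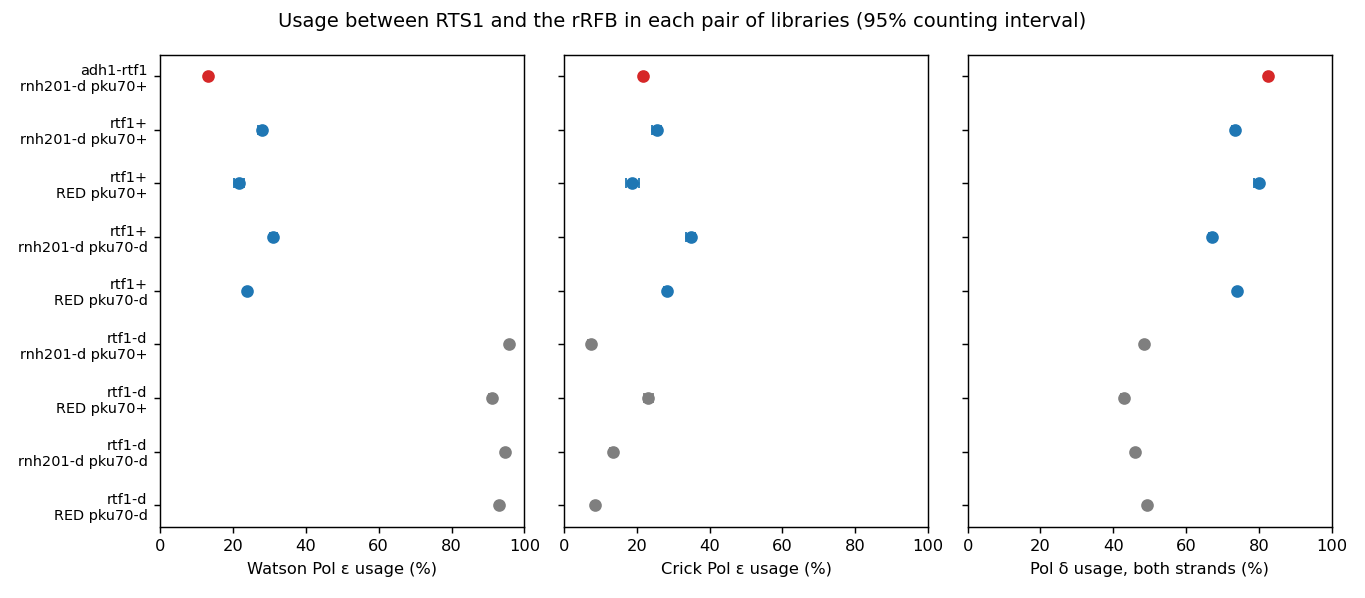
Watson Pol ε usage, Crick Pol ε usage and Pol δ usage over both strands (percent, x axes) between RTS1 and the rRFB in each pair of libraries, with 95% counting intervals (red, adh1-rtf1; blue, rtf1+; grey, rtf1-d). The adh1-rtf1 pair is the lowest on Watson at 13.3% and the highest in both-strand Pol δ at 82.5%, and lies among the rtf1+ pairs on Crick.

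Expressed as the part of barrier-off usage that was lost, Watson Pol ε fell by 86.2% (85.6 to 86.7) with adh1-rtf1. The rtf1+ pairs, each against its own rtf1-d pair, lost 72.2% ± 4.04 (SD, n = 4), with a range of 70.9 to 76.4% without the rnh201-d pku70-d pair and 67.2% in that pair. Taken against any of the 4 rtf1-d pairs in turn the adh1-rtf1 value was 85.5 to 86.2%, and against its own usage left of RTS1 it was 85.0%. The loss was nearly even along the stretch, at 87.2%, 85.9% and 85.3% in 3 successive parts.

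Watson Pol ε usage per Crick Pol δ usage was taken as a measure to which leftward canonical forks add nothing: canonical rightward forks add to both, and restarted rightward forks only to the second. Between the barriers this ratio was 17.0% (16.3 to 17.6) with adh1-rtf1, 37.3% with rtf1+ and 26.5 to 47.6% over the rtf1+ pairs. Beyond the rRFB it was 61.2% with adh1-rtf1 against 96.9% with rtf1+ (87.8 to 120% over the rtf1+ pairs). Without rnh201-d pku70-d the upper ends of these ranges were 37.3% and 96.9%. Over the rtf1-d pairs the ratio was 102 to 119% between the barriers and 111 to 134% beyond the rRFB. In rtf1-d rnh201-d pku70+ it was 103% and 115%. Beyond the rRFB, rtf1+ rnh201-d pku70-d lay above its own rtf1-d pair (120% against 113%), and the other rtf1+ pairs lay below theirs. The barrier-off ratio varied between pairs, so these percentages are not shares of canonical forks. Left of RTS1 the ratio was 93.5% with adh1-rtf1 and 98.6% with rtf1+. The adh1-rtf1 pair was the lowest of the 5 barrier-on pairs in all 3 stretches, though on the left the lowest rtf1+ pair, at 93.7%, was close to it.

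In steps of 1.5 kb the lower Watson usage began with the first step past RTS1 and went on past the rRFB. The adh1-rtf1 values at 0.75 to 9.75 kb were 13.99, 11.03, 12.3, 13.4, 14.7, 13.1 and 15.9%. The rtf1+ values at the same steps were 30.5, 29.02, 35.1, 24.1, 26.4, 26.7 and 32.9%. The adh1-rtf1 pair was below all 4 rtf1+ pairs in 7 of these 7 steps and in 9 of 9 steps from the rRFB to 24 kb, where it stood at 16.2 to 22.7%. From 24 to 36 kb it was below them in 4 of 8 steps and above them in 3, with values of 18.9 to 45.8% against 19.2 to 50.3% over the rtf1+ pairs. From 21 to 0 kb left of RTS1 the adh1-rtf1 pair was also outside them in places: Watson usage was above all 4 in 8 of 14 steps and below in 0, and both-strand Pol δ usage was below all 4 in 6 and above in 3. On the Crick strand it was below all 4 in 1 of 7 steps between the barriers and above all 4 in 1. Without rnh201-d pku70-d these Watson counts were the same, and both-strand Pol δ usage on the left was below in 7 and above in 4.

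**Figure D2:**
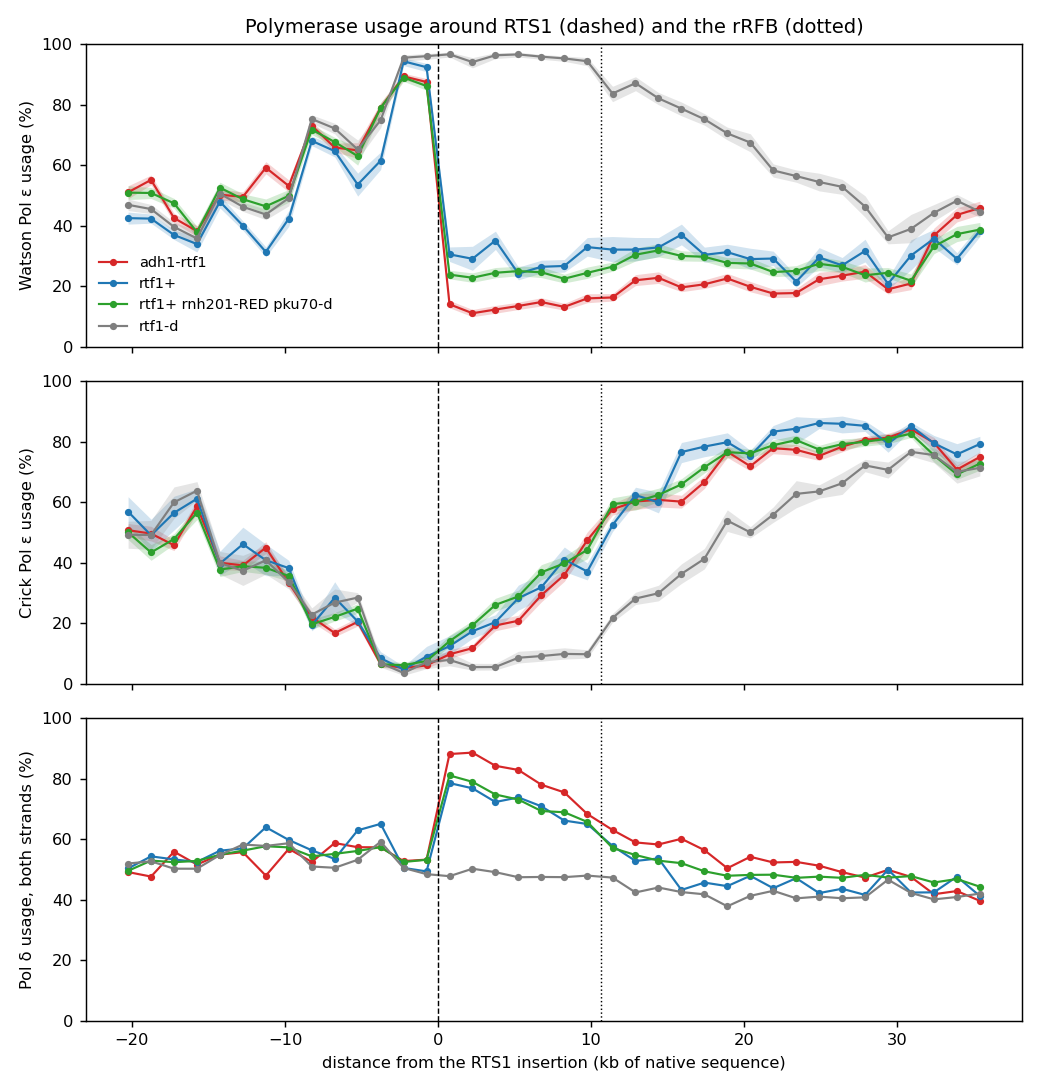
Watson Pol ε, Crick Pol ε and both-strand Pol δ usage (percent, y axes) in 1.5-kb steps against distance from RTS1 in kb of native sequence, for adh1-rtf1, rtf1+, rtf1-d (all rnh201-d pku70+) and rtf1+ rnh201-RED pku70-d, with shaded 95% counting intervals on the Pol ε panels. Watson usage drops at RTS1 (dashed) in the 3 barrier-on pairs and is lowest with adh1-rtf1 until about 24 kb, past the rRFB (dotted).

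Across the same 3 parts of the stretch between the barriers, both-strand Pol δ usage fell with distance in both pairs. It was 87.8%, 82.0% and 75.4% with adh1-rtf1 and 77.1%, 72.5% and 66.4% with rtf1+, which kept the pairs 8.94 to 10.7 points apart. Over these parts Crick Pol ε usage rose from 12.3% through 22.5% to 35.2% with adh1-rtf1 and from 16.6% through 27.4% to 39.6% with rtf1+. Watson usage stayed within 2 points along them in each pair.

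Beyond the rRFB the adh1-rtf1 pair still had the lowest Watson Pol ε usage, 19.6% against 29.5% with rtf1+ and 25.9 to 34.4% over the rtf1+ pairs (to 29.5% without rnh201-d pku70-d). Crick Pol ε usage there was 68.0% against 69.6%, and 69.6 to 71.2% over the rtf1+ pairs. Both-strand Pol δ usage was 56.2% against 50.5%, above the 47.2 to 51.8% of the rtf1+ pairs (from 50.5% without rnh201-d pku70-d). Left of RTS1, where forks arrive, Watson Pol ε usage was 88.6% against 93.6%, and the rtf1+ pairs ran from 87.7 to 93.6%, so that the value over this 2400-bp stretch lay within their spread, whereas single steps farther left did not.

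Where the forks met was not placed apart by the promoter. The point at which smoothed Crick Pol ε usage passed 50% lay at −449 bp from the rRFB with adh1-rtf1 and at 431 bp with rtf1+, and the remaining rtf1+ pairs were at 315, −436 and −1248 bp, where negative values lie on the RTS1 side. The interval of the difference, −1269 to 356 bp, included 0. With rtf1-d the point lay 8737 bp past the rRFB in the rnh201-d pku70+ background. The midpoint of the fall in Watson Pol ε usage at RTS1 lay 393 bp past the insertion point with adh1-rtf1, 378 bp with rtf1+ and 355 to 436 bp over all 5 barrier-on pairs, inside the construct's own sequence. In the 300-bp bin that starts nearest the insertion, Watson Pol ε usage was 89.1% with adh1-rtf1 and 81.3% with rtf1+, in the next 37.3% and 39.6%, and 1245 bp into the construct it was 13.6% and 32.6%.

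The second question was whether more Rtf1 acted anywhere but at RTS1. Over 4169 windows of 3000 bp outside a stretch of 21 windows at the construct, usage on each strand was compared, which gives 8338 strand windows. Against rtf1+, 743 of them (8.91%) moved by 10 points or more, 351 to higher and 392 to lower Pol ε usage. Against rtf1+ rnh201-RED pku70-d the number was 70 (0.84%), against rtf1-d rnh201-d pku70+ 324 (3.89%), and against rtf1-d rnh201-RED pku70-d 27 (0.324%). Between the rtf1+ and rtf1-d pairs of the rnh201-d pku70+ background, which differ in Rtf1 but have like fine patterns (0.97 for Pol δ and 0.94 for Pol ε), it was 71 (0.852%). Against the other pairs the counts were 173 (2.07%, rtf1+ rnh201-RED pku70+), 862 (10.3%, rtf1+ rnh201-d pku70-d), 754 (9.04%, rtf1-d rnh201-RED pku70+) and 707 (8.48%, rtf1-d rnh201-d pku70-d). As a scale for pairs without adh1-rtf1, rtf1+ against rtf1-d gave 706 (8.47%) in rnh201-RED pku70+, 113 (1.36%) in rnh201-d pku70-d and 65 (0.78%) in rnh201-RED pku70-d. The rtf1+ pairs of these 3 backgrounds, each against rtf1+ rnh201-d pku70+, gave 436 (5.23%), 350 (4.2%) and 443 (5.31%), and the rtf1-d rnh201-RED pku70-d pair against rtf1-d rnh201-d pku70+ gave 327 (3.92%). The count against adh1-rtf1 thus depended on the reference, and of the 8 references it was lowest for the pair without Rtf1 whose fine pattern was close, and next lowest for its rtf1+ partner.

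Both-strand Pol δ usage set the construct apart most clearly against rtf1-d rnh201-RED pku70-d, a barrier-off pair. A contrast with a barrier-off pair holds the barrier itself as well as the promoter swap. Against rtf1-d rnh201-RED pku70-d, the 4169 windows elsewhere changed by −9.67 to 5.75 points (SD 1.39 points) and none by 10, while the 5 windows from 0 to 12 kb right of RTS1 rose by 20.3 to 38.4 points. Against rtf1-d rnh201-d pku70+, those 5 windows rose by 20.3 to 38.7 points. Windows elsewhere ran from −30.3 to 25.2 points, a range that holds the smallest of the 5, and 84 of them passed 10 points in either direction. With the endogenous promoter, rtf1+ minus this same rtf1-d pair, the 5 windows already rose by 17.8 to 32.4 points. For adh1-rtf1 against rtf1+, they rose by 2.46 to 10.8 points, within the −32.8 to 22.9 points (SD 4.49 points) of windows elsewhere. Against rtf1+ rnh201-RED pku70-d they rose by 3.999 to 9.92 points, where windows elsewhere ran from −28.5 to 10.1 points (SD 2.37 points).

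**Figure D3:**
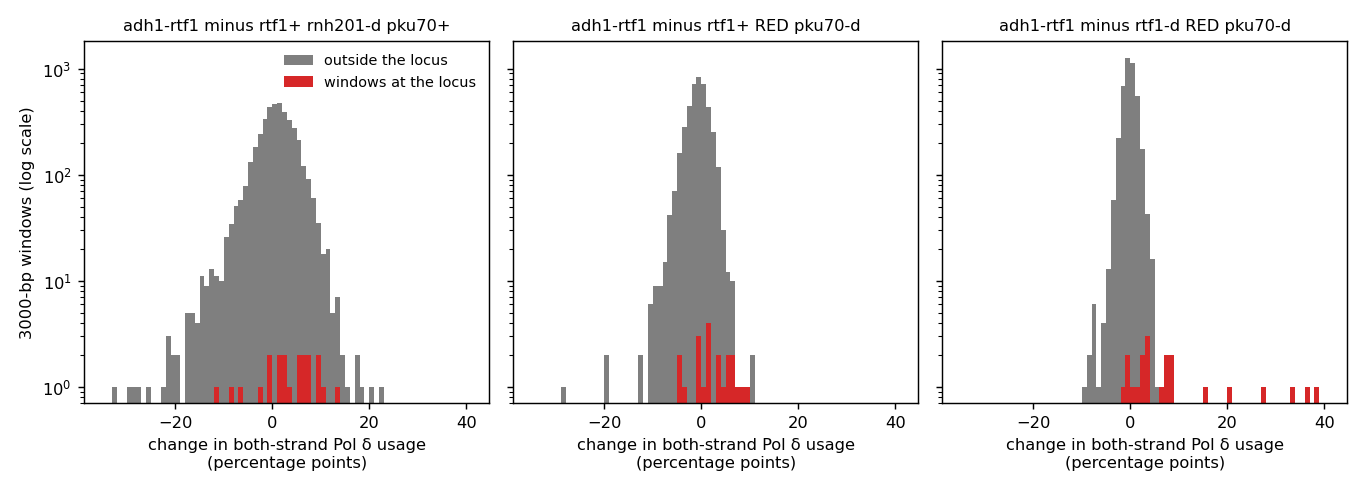
Number of 3000-bp windows (y axis, log scale) by the change in both-strand Pol δ usage in percentage points (x axes), adh1-rtf1 minus each of 3 references, with windows at the construct in red and all others in grey. Against rtf1-d rnh201-RED pku70-d (barrier off) the others lie between −9.67 and 5.75 points and the windows right of RTS1 reach 38.4. Against rtf1+ the grey windows spread from −32.8 to 22.9.

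The change against the barrier-off pair, a contrast that is not the promoter swap alone, fell off with distance from RTS1. Against rtf1-d rnh201-RED pku70-d, 8 of 10 strand windows from 0 to 12 kb right of RTS1 passed 10 points, 12 of 12 from 12 to 30 kb and 1 of 20 from 30 to 60 kb. The median change of both-strand Pol δ usage in these ranges was 33.4, 7.72 and −0.27 points. On the left 1 of 8 passed from 0 to 12 kb and 0 of 12 and 0 of 20 farther out to 30 and 60 kb. On the rest of chromosome 2 it was 0.373%, on chromosome 1 0.188% and on chromosome 3 0.551%. Against rtf1+ the shares were 3 of 10, 3 of 12 and 2 of 20 on the right, beside 8.76%, 9.28% and 8.45% on the rest of chromosome 2, chromosome 1 and chromosome 3.

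The windows that moved most against rtf1+ lay within 2.41 points of rtf1-d rnh201-RED pku70-d. A window on chromosome 3 that starts at 717001, without a protein-coding gene, fell by 32.8 points in both-strand Pol δ usage against rtf1+ and differed by 0.46 points from rtf1-d rnh201-RED pku70-d. At clr2, a silencing factor gene on chromosome 1, the values were −28.6 and 0.46 points. At crm1, the nuclear export receptor gene, they were −27.8 and −0.93 points, at pmc1 and vma5 −29.4 and 2.41 points, and at pma1, the plasma membrane proton pump gene, −25.6 and 2.14 points. These 5 windows also fell by 19.8 to 30.3 points against rtf1-d rnh201-d pku70+, the pair without Rtf1. Against rtf1+ rnh201-RED pku70-d they differed by −2.50 points (chromosome 3), −5.24 (clr2), −5.80 (crm1), −3.47 (pmc1 and vma5) and 1.46 points (pma1). In the rnh201-d pku70+ background the change had the same sign against rtf1+ and against rtf1-d. These references were of like fine pattern, and the windows were ranked by their change against rtf1+. The shared sign is therefore no separate evidence, and the cause was not tested.

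Sites where a fork barrier factor might be looked for were taken as classes, and each share is set beside that of all strand windows. For the first references below this was 8.91% (rtf1+) and 0.324% (rtf1-d rnh201-RED pku70-d). At the mating-type region, where RTS1 normally sets the direction of forks through mat1, 2 of 20 strand windows passed 10 points against rtf1+ and 0 of 20 against rtf1-d rnh201-RED pku70-d, a pair that carries smt0 at mat1. At the 171 tRNA genes, which pause forks by their transcription complexes, it was 33 of 270 and 0 of 270. At the 3 centromeres it was 12 of 118 and 0 of 118, and within the 4 chromosome ends of chromosomes 1 and 2 it was 24 of 134 and 1 of 134. Against rtf1+ rnh201-RED pku70-d, the mating-type region had 0 of 20 and the tRNA genes 4 of 270, beside 0.84% of all. The centromeres had 4 of 118 (3.39%) and the chromosome ends 10 of 134 (7.46%). Against rtf1-d rnh201-d pku70+ it was 1 of 20, 28 of 270, 9 of 118 and 15 of 134 in that order, beside 3.89%.

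The best remaining matches to the RTS1 repeats were examined for the same reason. With 2 mismatches among the 16 letters, 9 matches stood outside the native RTS1, in 0.215% of the 4189 windows of 3000 bp in the reference, whereas 3 mismatches already gave 120 matches and 2.84% of windows. Within 1500 bp of the 9 matches, both-strand Pol δ usage of adh1-rtf1 differed from rtf1+ by −11.03 to 6.19 points (median 4.07) and from rtf1-d rnh201-RED pku70-d by −1.62 to 0.76 points (median −0.55). Among them, the matches with the lowest, highest and next highest change against rtf1+ are printed with capitals for letters that match the consensus.
Match on the minus strand, chr2:2357848-2357866: CATACCtTTgctAAtTGGG
Match in mis4, chr1:396776-396794: CATACCaTTTtccAaTGGG
Match in hmo1 on the minus strand, chr2:1589375-1589393: CATACCtTTTccAgtTGGG
At the first, both-strand Pol δ usage was 39.2% with adh1-rtf1, 50.2% with rtf1+ and 39.7% with rtf1-d rnh201-RED pku70-d. At mis4, which encodes the cohesin loader, it was 42.5%, 36.3% and 43.1%. At hmo1, a high-mobility-group protein gene, it was 51.7%, 45.7% and 50.9%. In the same order, the rtf1+ rnh201-RED pku70-d pair was at 49.0%, 45.3% and 53.5%, and so near rtf1+ at the first match. The rtf1-d rnh201-d pku70+ pair was at 42.9%, 41.5% and 48.8%. At the first match, but not at the other matches, both of these rtf1+ pairs were above both rtf1-d pairs. The adh1-rtf1 value lay within 0.76 points of rtf1-d rnh201-RED pku70-d at each of the 3. These pairs also differ in rnh201, pku70 and smt0, and the cause was not tested.

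A test over all 18 libraries asked where the ratio of Pol ε to Pol δ counts changed with adh1-rtf1 beyond what rnh201, pku70 and barrier state gave. With edgeR's quasi-likelihood test and Benjamini-Hochberg adjustment, 46 of 8380 strand windows (0.549%) were called at 0.05, and 1094 had an unadjusted p under that value. At the construct 3 were called, all of them Watson windows that lie between both barriers. Their log2 changes were −1.56 (SE 0.27, adjusted p = 0.024), −1.49 (SE 0.27, adjusted p = 0.030) and −1.16 (SE 0.24, adjusted p = 0.047), all relative to rtf1+ strains in the same fit. Elsewhere 43 of 8338 (0.516%) were called, 34 with higher and 9 with lower Pol ε. The single adh1-rtf1 pair was assumed to vary like the others. The count did not hold when references were left out: it was 0 without the rtf1+ rnh201-d pku70+ pair (523 at an unadjusted p under the threshold), 9 without rtf1+ rnh201-RED pku70+, 16 without rtf1+ rnh201-d pku70-d, 11 without rtf1+ rnh201-RED pku70-d, 5 without rtf1-d rnh201-d pku70-d and 1 without rtf1-d rnh201-RED pku70-d, with no call at the construct in any of these 6 fits. It was 40 without rtf1-d rnh201-d pku70+, with 2 at the construct, and 566 without rtf1-d rnh201-RED pku70+, with 10 there. Without both rnh201-d pku70-d pairs, a fit chosen after seeing the data, it was 88, with 2 there.

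How far the 43 stood apart depended on the pair they were set against. All 43 lay 10 points or more from rtf1+ (median 20.4 points in size) and 6 did so from rtf1-d rnh201-RED pku70-d (median 1.33 points in size). Of the 43, 22 lay outside the range of the 8 reference pairs, and also of the 6 left without rnh201-d pku70-d. The 43 were called from these same libraries, so these counts describe the selected windows and are no separate support for them. The share of all strand windows that lay outside that range was not computed. At mug157, Crick Pol ε usage was 71.4% with adh1-rtf1 and 73.0% with rtf1-d rnh201-RED pku70-d (log2 change 1.62, edgeR adjusted p = 0.0083). At crm1 Watson usage was 61.3% and 63.1% (1.84, edgeR adjusted p = 0.0095), and at clr2 57.9% and 57.4% (2.02, edgeR adjusted p = 0.014).

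The other two of the 5 lowest adjusted p values outside the construct lay in places where adh1-rtf1 differed from all 8 reference pairs. In the window from 1761001 to 1764000 of chromosome 2, in the coordinates of the files, which holds fis1, a mitochondrial fission gene, and end3, an endocytosis gene, Watson Pol ε usage was 76.2% (75.1 to 77.3) with adh1-rtf1 and 49.7 to 56.1% in the 8 pairs (log2 change 1.68, SE 0.20, edgeR adjusted p = 0.00575). Crick usage was 26.3% against 33.0 to 40.7%. Taken as fork direction, the mean of Watson Pol ε and Crick Pol δ usage, rightward forks were 75.0% against 56.2 to 60.4%. In the next window, end3 to mrt4, they were 56.7% against 41.4 to 43.9%. At −18, −15 and −12 kb from the first window, rightward forks in the second-RTS1 adh1-rtf1 pair were 24.7%, 20.3% and 18.3% by its titles. The 8 pairs ran from 14.3 to 23.0%, 10.8 to 19.9% and 12.3 to 21.2% there. By its genotype labels this pair would have mostly rightward forks at these places instead. The second-RTS1 pair, which this fit did not use, had 68.8% in the fis1 to end3 window and 56.0% in the end3 to mrt4 window, and so was also above the range. When it was added, edgeR called 0 of 8338 strand windows outside the construct (676 at an unadjusted p under 0.05), and the Watson change at fis1 and end3 was 1.21 (SE 0.21, edgeR adjusted p = 0.10). Farther along, at lcf1, 12 kb from the first window, rightward forks were 45.7% and 44.4% against 47.7 to 50.7%, a shift the other way. Both-strand Pol δ usage in the first window was 48.7% with adh1-rtf1 and 55.0% in the second-RTS1 pair, against 51.7 to 57.1%, and in the next 51.6% and 53.3% against 48.3 to 53.1% (from 51.4% without rnh201-d pku70-d).

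The other place lay beside rtf1 itself. The window from 4800001 to 4803000 of chromosome 1, at sec24, a COPII coat gene, begins 874 bp from the promoter side of rtf1, where the NAT marker and the adh1 promoter were put in. Watson Pol ε usage was 27.1% (26.1 to 28.2) with adh1-rtf1, 37.2% in the second-RTS1 pair and 40.3 to 56.7% in the 8 reference pairs (log2 change −1.55, SE 0.22, edgeR adjusted p = 0.013). Crick usage was 72.0% and 62.6% against 57.1 to 62.0%. Rightward forks were 27.6% and 37.3% against 41.5 to 49.7% (to 47.4% without rnh201-d pku70-d), and both-strand Pol δ usage was 50.5% and 50.1% against 43.0 to 51.2%. With the second-RTS1 pair in the fit the Watson change was −1.19 (SE 0.59, edgeR adjusted p = 0.65). Nearby windows were outside the range in both adh1-rtf1 pairs as well: rightward forks were 59.1% and 57.6% against 59.9 to 68.9% at 6 kb and 57.3% and 53.8% against 59.1 to 65.2% at 9 kb, but at −6 kb, around pam1, they were 40.9% and 44.0% against 30.2 to 39.1%, higher instead of lower. Fork direction was outside the range of the 8 pairs, on the same side in both adh1-rtf1 pairs, in 197 of 4169 windows (4.73%) across the genome, 105 above and 92 below. At both places it was so, while Pol δ usage over both strands was not raised above it at fis1 and end3 or at sec24. In the end3 to mrt4 window the second-RTS1 pair, at 53.3%, was just above it. The part of Rtf1 and that of the inserted marker and promoter in these values was not tested. A fit with the rnh201-RED pku70-d pairs alone as references was chosen after the fine patterns were seen. Its Watson log2 change was 1.32 at fis1 and end3, 0.87 at end3 to mrt4 and −1.09 at sec24. It used the same adh1-rtf1 libraries that picked these places, so it is no separate support. In it, adh1-rtf1 cannot be told apart from rnh201, pku70 and smt0.

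**Figure D4:**
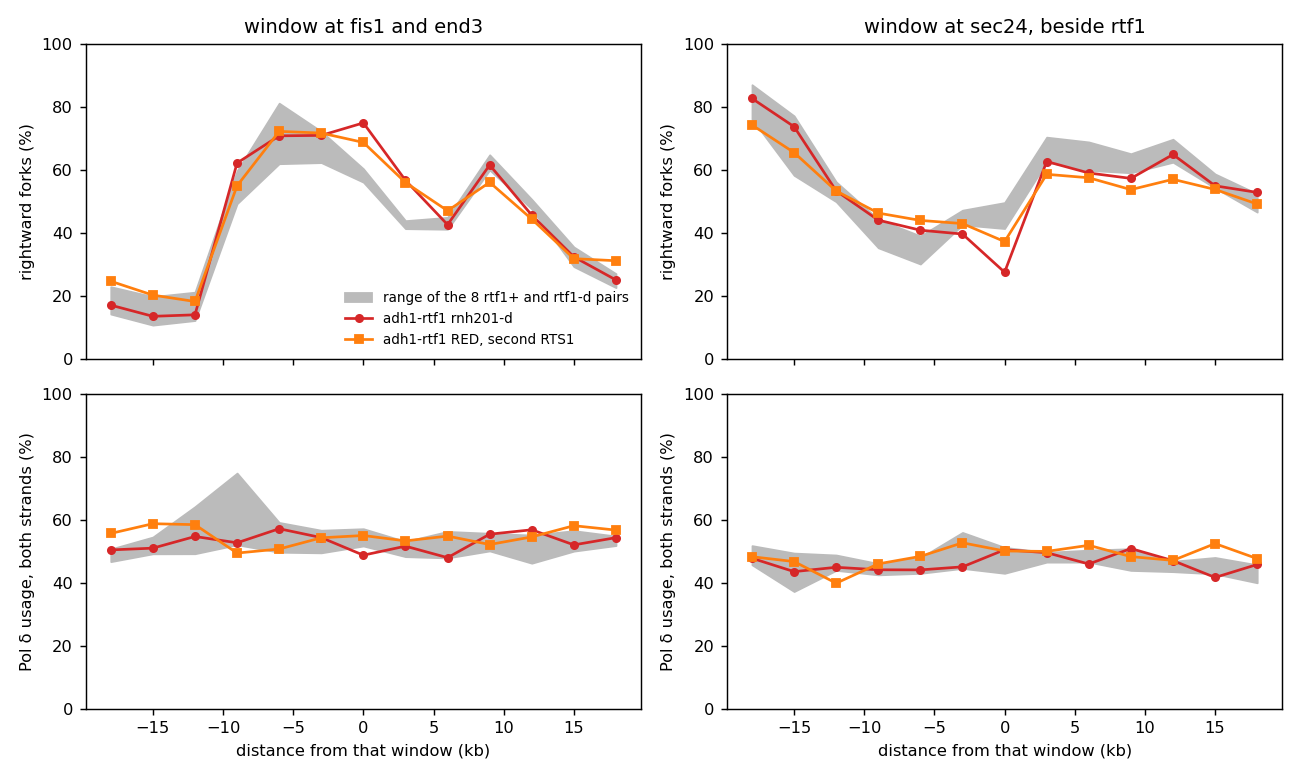
Rightward forks (top, percent) and both-strand Pol δ usage (bottom, percent) in 3000-bp windows against distance in kb from the window at fis1 and end3 (left) and from the window at sec24 (right), for the adh1-rtf1 pair (red), the second-RTS1 adh1-rtf1 pair (orange) and the range of the 8 rtf1+ and rtf1-d pairs (grey). Rightward forks reach 75.0% and 68.8% at fis1 and end3 and drop to 27.6% and 37.3% at sec24, outside the grey range in both pairs.

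The rDNA repeats hold their own fork barriers and lie at both ends of chromosome 3. Over each whole end, adh1-rtf1 usage differed from rtf1+ but lay within the range of the other reference pairs. At the left end Watson Pol ε usage was 25.0% against 36.8% and Crick 52.7% against 49.6%. At the right end Watson was 49.9% against 35.2% and Crick 24.6% against 32.8%. Over the 7 other reference pairs these ran from 21.3 to 36.9%, 34.9 to 53.4%, 32.1 to 54.3% and 18.7 to 40.5%, and adh1-rtf1 lay inside each of these ranges. In 3000-bp windows, 7 of 24 strand windows at the rDNA (29.2%) passed 10 points against rtf1+, beside 8.91% of all strand windows outside the construct. Against rtf1-d rnh201-RED pku70-d it was 8 of 24 (33.3%) beside 0.324%, and against rtf1+ rnh201-RED pku70-d 2 of 24 (8.33%) beside 0.84%. The rDNA share was thus above the share of all windows in each of these comparisons. The rDNA windows hold copies of the same repeat, so they are not separate sites. With adh1-rtf1, Watson Pol ε usage at the left end was 67.9% both at 4.2 kb and at 15 kb. The median change of both-strand Pol δ usage was 3.11 points against rtf1+ and −7.47 points against rtf1-d rnh201-RED pku70-d. The 5 windows that differed most from rtf1-d rnh201-RED pku70-d in the whole genome were all rDNA windows, at −9.67 to −7.74 points. The rDNA took 6.73% of Pol δ and 3.0% of Pol ε counts with adh1-rtf1 against 7.62% and 4.86% with rtf1+, and reads from its repeats cannot be assigned to single copies.

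**Figure D5:**
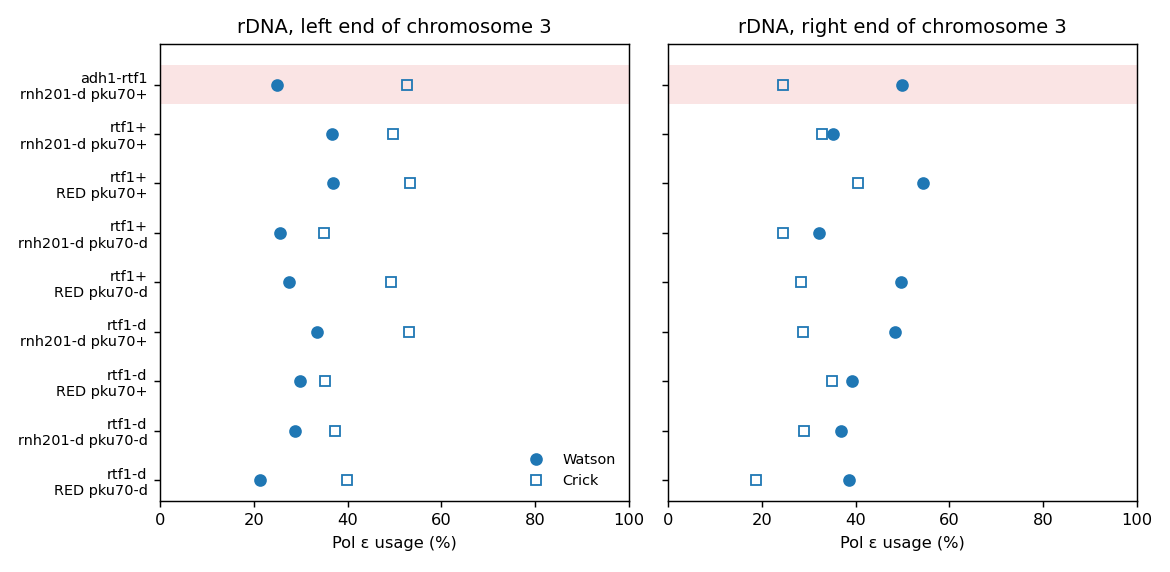
Watson (filled) and Crick (open) Pol ε usage (percent, x axes) at the left and right rDNA ends of chromosome 3 in each pair of libraries, with adh1-rtf1 shaded. The adh1-rtf1 values of 25.0 and 52.7% on the left and 49.9 and 24.6% on the right lie among those of the other pairs.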

How the data were processed

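The measurements were genome-wide Pu-seq of log-phase fission yeast, with 1 library per polymerase and strain. The authors aligned reads with Bowtie2 (version not given in the sources used here) and deposited raw counts of 5′ ends per 300-bp bin, with 1 table per strand. The files use coordinates that include the inserted construct. Its insertions (about 2840 bases at RTS1 and 800 at the rRFB) and the native RTS1 deletion were located by matching count patterns, and positions at the construct were turned into those of the reference ASM294v3, from which gene names and sequences were taken. Window positions elsewhere are those of the files.

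Counts were divided by library total, and Pol ε usage on a strand was scaled Pol ε over scaled Pol δ plus Pol ε. Both-strand Pol δ usage was the mean over strands. Sequence within 600 bp of an insertion was left out, 1.5-kb steps were used by distance, and 11 bins of smoothing for the meeting point of forks and 3 for the switch. Intervals were analytic at 95%. Genome windows were 3000 bp, with at least 10 counts in every library and strand, and a change was counted from 10 points.

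For the test, edgeR 4.0.16 (R 4.3.3; TMM, glmQLFit and glmQLFTest) was fitted to 18 libraries with polymerase, rnh201 allele, pku70, barrier, adh1-rtf1 and the product of polymerase with each of these factors. The term of polymerase by adh1-rtf1 was tested over 8380 strand windows with Benjamini-Hochberg adjustment at 0.05. It was tested on simulated data first. DESeq2 1.42.0 was an alternative. Other steps used Python 3.11.15, numpy 2.4.6, pandas 2.3.3 and scipy 1.17.1. Nothing in the labels says that samples of a group were separate cultures, as each group held 1 library. Other alternatives were scaling by the median bin, means of single bins, other reference pairs, other windows and thresholds, and each pair left out in turn.

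Named sites were the barriers and their neighbours, rtf1 and adh1, the rDNA ends, mating-type region, centromeres, chromosome ends, tRNA genes, the best repeat matches, and for each genome comparison the 5 windows with the largest change or lowest adjusted p outside the construct. A list of genes in the plan is not reported here. The end3 to mrt4 window was added after its values were seen. The comparison, lists and sites were chosen with earlier results of these data known. No column without a sample was used (0 such columns).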

Additional observations from a re-analysis of the deposited data

Results flagged for a closer look

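One value stood apart from its group of 4. In the end3 to mrt4 window, Watson Pol ε usage of the rtf1+ rnh201-d pku70-d pair was 45.0%, and the nearest of the other 3 rtf1+ pairs was at 39.3%, a gap of 0.915 of the whole range, above Dixon's 95% critical value for 4 samples. Of 51 groups of 4 that were examined this was the only such value. Chance gives about 1 such value in 20 groups, so 1 in 51 groups is no more than chance gives. The flagged pair is also one whose counts over pku70 go against its label. In the same window the adh1-rtf1 pair was at 55.1%, above 45.0% as well.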

How the results depend on the processing

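Of 88 recomputed values, 27 stayed close to the reported ones, 52 moved and 9 changed sign. Watson Pol ε usage between the barriers, adh1-rtf1 minus rtf1+, was −12.7 points scaled by the median bin, −16.0 as a mean of single bins, and −8.26, −17.8 and −10.6 against the rnh201-RED pku70+, rnh201-d pku70-d and rnh201-RED pku70-d pairs. Against the same 3 references in that order, the Crick difference between the barriers was 3.01, −13.1 and −6.65 points and the left Watson difference −2.94, 0.95 and 0.77. Crick usage beyond the rRFB differed by −5.19 as a mean of single bins, and by −3.20 and −3.03 against the rnh201-d pku70-d and rnh201-RED pku70-d references. Both-strand Pol δ usage rose by 7.66 points scaled by the median bin, and by 2.63 and 15.4 against rnh201-RED pku70+ and rnh201-d pku70-d. The Watson loss was 85.5% against rtf1-d rnh201-RED pku70+ and 85.0% against usage left of RTS1. The meeting point of forks differed by 1774 bp at a 60% threshold and the switch by −16.9 bp with 5 bins of smoothing, against a main difference of −879 bp and one of opposite sign for the switch. Strand windows past the change numbered 5281 at 900 bp, 173 at 9000 bp, 3186 at 5 points and 195 at 15 points. With other references they numbered 173 (rnh201-RED pku70+), 70, 27 and 324, the last 3 chosen after seeing the data.

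At the rDNA, the differences scaled by the median bin were −10.3 (left Watson), 4.23 (left Crick), 15.2 (right Watson) and −6.74 points (right Crick). In the same order they were −11.9, −0.74, −4.43 and −16.0 against rtf1+ rnh201-RED pku70+. Against the rnh201-RED pku70-d pairs, added after seeing the data, they were −2.42, 3.42, 0.33 and −3.83 with rtf1+ and 3.71, 12.9, 11.3 and 5.84 with rtf1-d. The log2 ratio of the rDNA share, adh1-rtf1 over rtf1+, went from −0.18 to −0.46 (Pol δ) and from −0.70 to −0.87 (Pol ε) relative to the median bin. Leaving out bins far from the median left too few rDNA bins to use and was not run.

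The test called 394 strand windows with DESeq2 (8 at the construct), 26 with library totals, 2 of 27915 at 900 bp, 0 among barrier-on libraries (edgeR; 1090 at an unadjusted p under 0.05), 0 with the second-RTS1 pair added (edgeR; 676 unadjusted), 8 with the rnh201-RED pku70-d pairs alone and 88 without both rnh201-d pku70-d pairs, both added after seeing the data, and 0 to 566 with 1 pair left out. It was 0 without rtf1+ rnh201-d pku70+ (523 unadjusted), 9 without rtf1+ rnh201-RED pku70+, 16 without rtf1+ rnh201-d pku70-d, 11 without rtf1+ rnh201-RED pku70-d, 566 without rtf1-d rnh201-RED pku70+, 5 without rtf1-d rnh201-d pku70-d and 1 without rtf1-d rnh201-RED pku70-d. Without a count filter the same 8380 windows were tested and 46 called. The cause was not tested. No paired analysis was possible because the labels give no shared replicate numbers. Depth set the counting intervals, and 1 library per strain leaves the spread between cultures unknown.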
